A study of Drosophila melanogaster with 2 samples.

Results

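A one-gene promoter, as used here, is the start of a protein-coding gene that does not share its upstream DNA with a closely spaced gene pointing the other way. Of the 3312 regions that passed the submitters' irreproducible discovery rate (IDR) threshold for GFP-tagged Sage, 3292 lay on the chromosome arms, and 980 of these (29.8%, 95% exact interval 28.2 to 31.4) had their summit at such a promoter. A summit, the position of highest signal in a region, was kept when it lay within 500 bp of an annotated protein-coding transcription start site (TSS). It was left out when its nearest TSSs on the plus and minus strands belonged to different genes, pointed away from each other and were at most 1000 bp apart. The latter made up 460 peaks, called divergent-pair peaks here, and the remaining 1852 peaks lay farther than 500 bp from any protein-coding TSS. The rule used positions alone, and no signal, sequence or gene function entered it.

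Chromatin immunoprecipitation with sequencing was done with an antibody against GFP on whole Drosophila melanogaster at the wandering stage of the third instar, with males and females pooled. The animals were of the sage-GFP strain, a stable transgenic line in which GFP is joined to the C-terminus of Sage, and the chromatin was sheared by sonication in a Bioruptor. The 2 samples, biological replicates 3 and 4, form 1 group with no untagged or mutant group beside it, so no comparison between groups was made. Because whole animals were used, a signal cannot be assigned to a tissue.

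Sage belongs to the basic helix-loop-helix (bHLH) factors and is known from the salivary gland, where it works with the forkhead factor Fkh and other gland factors on the gland's secretory genes. Factors of the bHLH class bind E-boxes, short sites of the form CANNTG. Fly promoters fall into broad classes: many promoters of developmental genes carry GA repeats, which are bound by GAGA factor (the product of Trl), while many promoters of widely used genes carry the DRE, the site of the factor DREF, or related sites of the insulator protein BEAF-32.

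The windows of 101 bp centred on the summit show how differently these promoters can be built, and 6 of them are printed 5′ to 3′ along the strand of the gene, from the RefSeq Release 6 (dm6) genome. The first 2 are the strongest 2 one-gene promoter peaks, with capitals marking an E-box (CANNTG) in the first and TATAAA, the letters of a TATA box, in the second. The next 2 are the strongest printable windows with TATCGATA, the DRE, and with GAGAG, the core of the GAGA factor site, on either strand (CTCTC when read along the gene), again in capitals. The last 2 hold the most copies of GAGAG among windows that lie wholly upstream of the gene and outside annotated untranslated exons, and were chosen after the copies had been counted.
CG14100 (chr3L:19590574-19590674, minus strand): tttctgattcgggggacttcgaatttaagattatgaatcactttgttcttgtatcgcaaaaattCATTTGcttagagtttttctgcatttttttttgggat
CG18549 (chr3R:12449132-12449232, plus strand): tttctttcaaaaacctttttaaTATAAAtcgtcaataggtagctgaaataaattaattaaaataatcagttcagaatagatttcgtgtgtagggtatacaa
CG11151 (chrX:13739463-13739563, plus strand): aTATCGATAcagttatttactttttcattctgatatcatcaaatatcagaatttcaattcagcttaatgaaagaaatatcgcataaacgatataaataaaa
REPTOR (chr3R:24572635-24572735, minus strand): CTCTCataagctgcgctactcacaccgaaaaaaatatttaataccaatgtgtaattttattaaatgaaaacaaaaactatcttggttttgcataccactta
Naprt (chr2L:4197386-4197486, minus strand): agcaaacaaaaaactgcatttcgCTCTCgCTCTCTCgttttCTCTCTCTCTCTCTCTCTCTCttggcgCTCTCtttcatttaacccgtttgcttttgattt
Cad86C (chr3R:10826894-10826994, plus strand): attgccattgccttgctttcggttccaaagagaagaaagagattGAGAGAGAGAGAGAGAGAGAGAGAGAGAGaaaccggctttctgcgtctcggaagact

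The first 4 windows are rich in A and T, with GC contents of 31.7% at CG14100, 24.8% at CG18549, 22.8% at CG11151 and 29.7% at REPTOR. The windows at Naprt and Cad86C, with 13 overlapping or separate copies of GAGAG each, had GC contents of 42.6% and 47.5%. Both kinds occurred among the 980 peaks. CG14100 was picked by its signal, and Naprt and Cad86C by their copies, so the values in each replicate describe these peaks alone. The CG14100 peak had a signal of 1265 in the IDR list, 564 in replicate 3's list and 711 in replicate 4's list. The Naprt peak had 111, 19.9 and 109.5 in the same lists, and the Cad86C peak had 102 in the IDR list, 89.3 in replicate 4 and no region in replicate 3. CG14100 was number 3 on the arms in every list. Naprt was number 873 in replicate 4 and number 17268 in replicate 3, and Cad86C was in the list of replicate 4 alone.

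These signals are the authors' own values per region. No source used here states how they were scaled, so they were compared within 1 list only. An IDR peak has the signal of the list made from both replicates together. Medians of peaks in a replicate cover only the peaks with a region in that replicate's list. The files give no read counts: depth is unknown, and the intervals of shares given here cover counting error over regions only. Replicate 3's list held 29999 regions and replicate 4's 30000. A region was called strong in a replicate when it was among that list's 3312 strongest, the size of the IDR list. Every coordinate is dm6, and genes are those of Ensembl release 115.

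The label of the class was checked against the annotation. A single gene had a TSS within 500 bp of the summit at all but 36 of the 980 peaks (3.67%), and at 29 peaks the nearest TSS itself was annotated to 2 or more genes. The summit lay between protein-coding genes in 467 cases (47.7%), in an intron of its own gene in 303 (30.9%), in an untranslated exon in 157 (16.0%), in an intron of another gene in 46 and in coding sequence in 7. A summit can lie in an intron of its own gene where the gene has a further start site upstream or a short first exon. Peaks were 98 to 390 bp wide, and 86.0% were exactly 390 bp. Peaks near the limits of the rule did not stand apart in signal: the 31 peaks 451 to 500 bp from the TSS had a median signal of 123 and the 46 peaks 501 to 550 bp away, which were not kept, had 130. The 15 peaks kept with TSS pairs 1001 to 1100 bp apart had a median of 118, and the 21 left out with gaps of 901 to 1000 bp had 122.

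Sage-GFP summits sat on the upstream side of the genes. Of the 980 summits, 822 lay upstream of the nearest TSS (83.9%, 95% exact interval 81.4 to 86.1), 156 downstream and 2 at it. The share was 84.4% among the 992 one-gene promoter regions of replicate 3's strong list and 83.2% among the 1056 of replicate 4's, so the replicates differed by less than the counting interval. The median upstream distance was 168 bp, and 490 summits (50%) lay 51 to 250 bp upstream. The 100 bp bins from 300 bp upstream to the TSS held 176, 253 and 238 summits, against 62 in the first 100 bp downstream and 17 to 30 in each later bin. Divergent-pair summits lay nearer to a TSS, with a median distance of 94 bp against 166.5 bp, where a point between 2 close TSSs cannot be far from both. They were upstream in 76.7% of cases (95% exact interval 72.6 to 80.5), and 55.9% of them lay 51 to 250 bp upstream, so most summits were upstream in both classes.

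**Figure D1:**
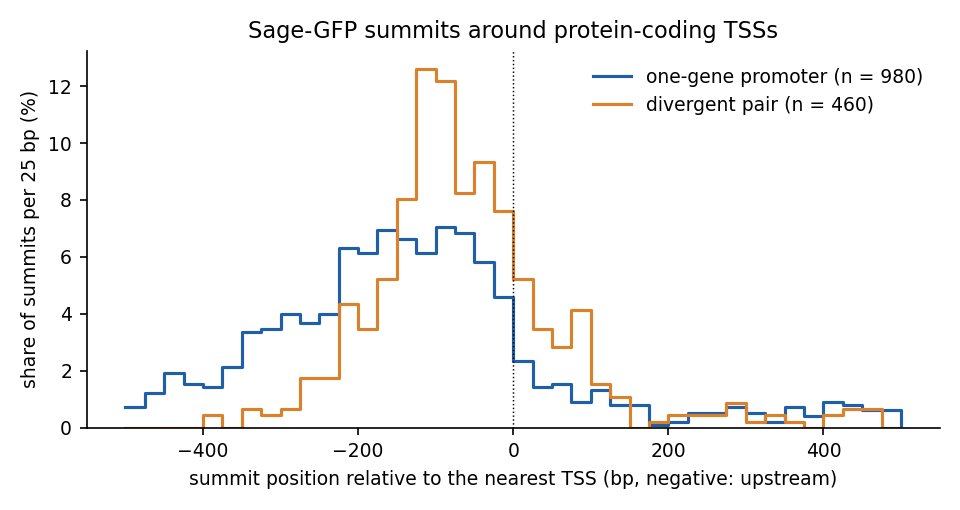
Share of summits (%) in bins of 25 bp by their position relative to the nearest protein-coding TSS (bp, negative values upstream), for the 980 one-gene promoter peaks (blue) and the 460 divergent-pair peaks (orange). The blue curve is broad and lies mostly left of the TSS, where 83.9% of one-gene summits fall, and the orange one, with 76.7% left of the TSS, is narrower and nearer to it.

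Signal differed less between positions than among peaks. Median IDR signals were 151 for summits 200 to 300 bp upstream, 150 at 100 to 200 bp and 124 in the last 100 bp before the TSS. Over all 10 bins of 100 bp the medians ran from 120 at 100 to 200 bp downstream, with 29 summits, to 169 at 300 to 400 bp downstream, with 17. The medians for upstream and downstream summits as a whole were 138 and 130 in the IDR list, 63.5 and 58.7 in replicate 3, and 86.1 and 81.4 in replicate 4. Upstream summits were thus slightly higher in each list, by far less than the spread among peaks, whose middle 50% ran from 112 to 190 in the IDR list.

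As a class, one-gene promoter peaks had nearly the same median signal as the others in the IDR list. Their median signal was 136, against 135 at divergent pairs and 135 farther from TSSs. They made up 29.8% of the peaks and held 29 of the 100 strongest and 160 of the 500 strongest. Divergent-pair peaks, 14.0% of all, held 26 and 73, and the peaks farther from TSSs, 56.3% of all, held 45 and 267. In replicate 3 the peaks' medians were 62.4 for one-gene promoters, 68.5 for divergent pairs and 60.9 for the rest. In replicate 4 they were 84.8, 74.0 and 81.2. Divergent pairs thus stood above one-gene promoters in replicate 3 and under them in replicate 4. Signals of one-gene promoters were skewed, with 229 above 200 and 22 above 500.

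Most one-gene promoter peaks were found in both replicates, but not at matching rank. The IDR threshold selects regions by agreement between these same replicates, so presence in both lists is in part given by the selection. Of the 980, 581 (59.3%, 95% exact interval 56.1 to 62.4) overlapped a strong region of each replicate by at least 1 bp, close to the 57.4% of divergent-pair peaks and the 58.4% of the rest. A further 219 met a strong region in replicate 4 alone, 151 in replicate 3 alone and 29 in neither, and 32 had no region at all in replicate 3's list and 6 none in replicate 4's. Neighbouring peaks can meet the same replicate region, which was the case for 60 members in each replicate. Where a region was found, its summit lay a median of 19 bp away in replicate 3 and 9 bp away in replicate 4. Across the 942 peaks with a region in both lists, which share 2 libraries and are not independent, the signals correlated with a Spearman rho of 0.448 and, as log2 values, a Pearson r of 0.550.

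Base composition ran along with the difference between replicates. When the 980 peaks were split into 4 groups of 245 by the GC content of their windows, the share strong in replicate 3 was 88.2% in the group lowest in GC, then 83.3% and 71.8%, and 55.5% in the highest. In replicate 4 the shares were 80%, 79.6%, 78.4% and 88.6%, with the highest in the GC-rich group. The median signal in the group lowest in GC was 77.7 in replicate 3 and 91.2 in replicate 4, and that in the GC-rich group was 51.05 and 89.5. Peaks strong in replicate 4 alone had a GC content of 42.2%, against 34.4% for those strong in replicate 3 alone and 34.9% for those strong in both. Whether this came from library preparation, from the animals or from binding was not tested, and with 1 library per replicate these cannot be told apart.

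**Figure D2:**
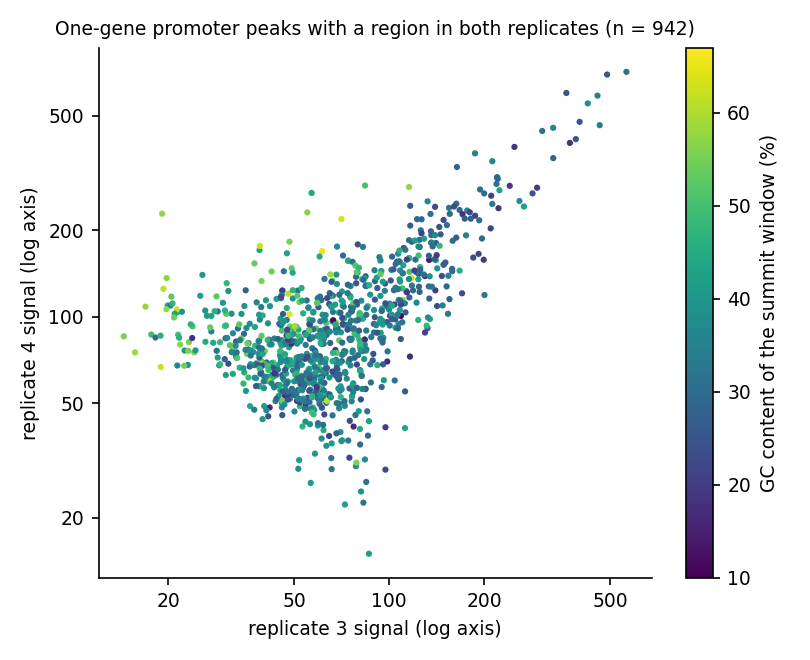
Signal in replicate 3 (x, log axis) against signal in replicate 4 (y, log axis), both the authors' values with scaling not given, for the 942 one-gene promoter peaks with a region in both lists; each point is 1 peak and its colour the GC content (%) of the 101-bp window at the summit. The strongest peaks are high in both replicates and mostly dark (low in GC), though not all, as Hsp27 at 425 and 552.5 has 37.6% GC against a class mean of 36.5%. GC-rich peaks (green and yellow) lie further to the left, with lower signals in replicate 3.

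The one-gene promoter peaks belonged to 901 of 13945 protein-coding genes on the arms (6.46%), and this share is the background for every gene group described here. With both genes of a pair counted, 891 genes (6.39%) had a divergent-pair summit. Of these, 39 are also among the 901. The share of genes was 6.13% on 2L, 6.31% on 2R, 7.37% on 3L, 5.96% on 3R and 6.51% on X, and 9 of 80 genes on the small chromosome 4 (11.2%) had one. Of the 901 genes, 807 had 1 such summit, 81 had 2, 10 had 3 and 3 had 4.

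Genes with one-gene promoter summits tended to be longer and to have more start sites than protein-coding genes in general, though 388 of the 901 had a single TSS. Their median length was 6396 bp, against 2166 bp over all protein-coding genes and 2729 bp for genes at divergent-pair summits. Several TSSs were annotated for 56.9% of them and for 26.5% of all genes. A one-gene promoter summit was found at 388 of 10246 genes with 1 TSS (3.79%), at 231 of 2566 with 2 (9.0%) and at 282 of 1133 with 3 or more (24.9%). A gene with more TSSs offers the rule more places to meet a summit, and how much of the difference this gives was not tested. The next gene upstream lay on the same strand for 64.2% of the 901 genes and 46.4% of all genes, an arrangement that the rule favours by leaving out divergent pairs.

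The 24 genes with the strongest one-gene promoter peaks were led by genes known by a CG number alone, a small heat shock gene and a glycolytic gene. All 24 summits lay upstream of the nearest TSS, at 100 to 467 bp, and 21 of them at 100 to 250 bp. Each was within the 158 strongest regions on the arms in replicate 3 and the 98 strongest in replicate 4, so all 24 were strong in both. The 24 were picked by the signal of the list made from both replicates together, so high ranks in each are in part given by the choice. The signal of CG18549 was 1179 in the IDR list, 490 in replicate 3 and 696 in replicate 4, with the summit 114 bp upstream. Hsp27, which encodes a small heat shock chaperone, had signals of 999.7, 425 and 553 in the same order (3L 9383743 to 9384059, 133 bp upstream, between genes). Gapdh2, a gene of the glycolytic enzyme glyceraldehyde-3-phosphate dehydrogenase, had 965, 364 and 601 (X 15867790 to 15868166, 169 bp upstream, between genes). The Hsp27 peak was number 13 on the arms in replicate 3 and number 14 in replicate 4, and the Gapdh2 peak was number 25 and number 10.

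The others of the 24 have varied roles. The IDR signal was 1031 at CG1888, between CG18549 and Hsp27, and 871 at Tina-1. It was 782 at larp, which encodes an RNA-binding protein of the La-related family, and 778 at Lpin, the fly lipin, an enzyme of fat synthesis with a role in fat body development. PAN3, a subunit of an mRNA deadenylase, had 688, Trp1, the fly counterpart of the translocon protein Sec62, had 558, and gish, a casein kinase I, had 554. REPTOR, a transcription factor acting downstream of TOR signalling, had 525, the tyrosine kinase gene Btk 522, and eIF6, a factor in ribosome assembly, 508. The peak of eIF6 lay in an intron of another gene. The rest were SLC5A11 (789), CG13921 (728), Fkbp14 (642), CG4586 (557), aru (523), Ptpmeg2 (506), Hpf1 (499), MFS10 (495) and CG34056 (480).

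The peak of ph-p, which encodes the Polycomb group protein Polyhomeotic proximal, had an IDR signal of 904 and signals of 464 in each replicate's list, 467 bp upstream of the nearest TSS. A second summit of ph-p lay 430 bp downstream of a TSS with an IDR signal of 576. Its neighbour ph-d is a near-identical copy, so reads could have been placed at either gene and both values are uncertain. At the other end, the weakest one-gene promoter peak was that of CG32687, with 95.7 in the IDR list, 41.5 in replicate 3 and 65.3 in replicate 4.

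Some genes had a summit upstream of one inner start site after another. Ptpmeg2, a protein tyrosine phosphatase gene, had 4 summits, with IDR signals of 506, 338 and 265 at 189, 184 and 186 bp upstream of their TSSs and 103 at 142 bp downstream of a further one. The summits upstream of the first 3 TSSs were thus at almost the same distance from them. Svil, the fly supervillin gene, had 4 summits, of which the strongest had 409 at 220 bp upstream, and bun, a gene of the TSC22 family, also had 4, with 335 at 336 bp upstream as the strongest. Then came REPTOR, with 3 summits of 525, 118 and 98.5, and the reticulon gene Rtnl1, with 3 summits of 412, 169 and 140. The peaks of the first 2 REPTOR summits overlap and meet the same region in each replicate.

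Gene groups differed in how often they had a one-gene promoter summit. Of 22 lists, the ecdysone response, glycolysis, heat shock proteins, insulin and TOR signalling, salivary gland factors and the Polycomb and Trithorax groups had shares of 25% to 50%, with intervals above the 6.46% of all genes. The interval of the cytosolic ribosomal proteins, at a lower share, also began just above it. Some of these shares depended on the rule: with divergent pairs defined up to 2000 bp apart 14.3% of the salivary gland factors had a summit, against 5.45% of all genes, and with canonical transcripts alone 12.5% of the Polycomb and Trithorax groups did, against 5.13% of all genes. The lists hold 12 to 179 genes, and genes of one list are not replicates. They were chosen with earlier results of these data known, so the shares and intervals are a description and not a test.

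**Figure D3:**
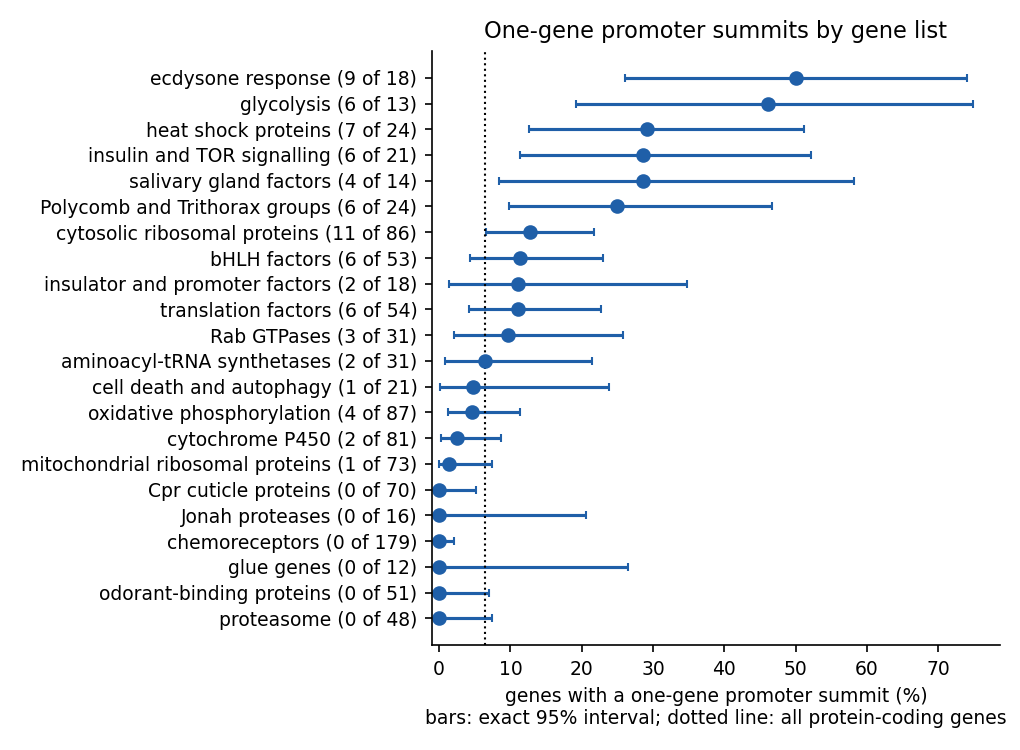
Share of genes (%) with a one-gene promoter summit in each of 22 gene lists; the labels give the number of genes with a summit and the size of the list, bars are exact 95% binomial intervals and the dotted line is the 6.46% of all protein-coding genes. The ecdysone response (50%) and glycolysis (46.2%) lie highest, and 6 lists have no gene with such a summit. The lists were chosen with earlier results of these data known.

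Genes of the response to ecdysone, the steroid hormone that starts metamorphosis, had one-gene promoter summits in 9 of 18 cases (50%, 95% exact interval 26.0 to 74.0). The strongest was at E23, an ABC transporter gene, with 297 in the IDR list, 149 in replicate 3 and 152 in replicate 4, 172 bp upstream of the TSS. Eip75B, a nuclear receptor gene of the early response, had 247, 119 and 124, with the summit 14 bp upstream. EcR, the ecdysone receptor gene, had 244, 68.4 and 175, and its rank on the arms was 281 in replicate 4 and 1369 in replicate 3. Eip63F-1 had 203, with the summit 456 bp downstream, and Eip74EF, an ETS factor gene, had 174 at 206 bp upstream. The receptor genes Hr4, Hr3 and usp and the coactivator gene tai had 101 to 153.

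In each replicate's own strong regions the ecdysone share was 44.4% in replicate 3 and 55.6% in replicate 4. With canonical transcripts alone it was 27.8%, where the share of all genes was 5.13%. Of the 18 genes 10 had 3 or more TSSs, and 5 of those 10 had a summit, where the share over all genes with 3 or more TSSs was 24.9%. Of the 8 with fewer TSSs, 4 had one.

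Glycolytic enzyme genes had a summit in 6 of 13 cases (46.2%, 95% exact interval 19.2 to 74.9), and the share was 46.2% in each replicate's own strong regions too. Besides Gapdh2, the enolase gene Eno had 347 in the IDR list, 199 in replicate 3 and 158 in replicate 4 (221 bp upstream), and the lactate dehydrogenase gene Ldh had 269, 114 and 158 (168 bp upstream). The hexokinase gene Hex-A had 204, 90.1 and 115 (156 bp upstream). Ald1 and PyK, the aldolase and pyruvate kinase genes, were near the lower end, with 116 and 115. The median over the 6 genes was 236, against 140 over the 901 genes. With canonical transcripts alone the glycolysis share was 30.8%, and with divergent pairs defined up to 2000 bp apart it was 23.1%.

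Heat shock protein genes had 7 of 24 (29.2%, 95% exact interval 12.6 to 51.1). After Hsp27 came Hsp26, another small chaperone gene, with 283 in the IDR list, 111 in replicate 3 and 174 in replicate 4, and Hsp110 with 175, 49.5 and 116. Hsp22 had 145, 82.4 and 76.0, and Hsp23 had 99.2. Hsp22, Hsp23, Hsp26 and Hsp27 are small heat shock genes of 1 cluster on 3L. The list also held Hsp60A, of the mitochondrial chaperonin, with 141 and Hsc70-3, the BiP chaperone of the endoplasmic reticulum, with 110.

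Insulin and TOR signalling genes had 6 of 21 (28.6%, 95% exact interval 11.3 to 52.2). They were led by the kinase gene sgg, with 224 in the IDR list, 96.9 in replicate 3 and 123 in replicate 4, and by foxo, the transcription factor restrained by insulin signalling, with 210, 110.1 and 95.7. Pi3K21B, a regulatory subunit of PI3-kinase, had 173 and Sik3 138, while the insulin receptor gene InR had 113, with 30.2 in replicate 3 and 105 in replicate 4. Of the 6, 4 were among the 5 genes of the list with 3 or more TSSs. The 16 genes with fewer TSSs held the other 2. Over all genes the share was 24.9% with 3 or more TSSs, 9.0% with 2 and 3.79% with 1.

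Among 14 salivary gland factors, 4 had a one-gene promoter summit (28.6%, 95% exact interval 8.39 to 58.1), and none of 12 glue genes did, which allows a share of up to 26.5%. Xbp1, a regulator of secretory capacity, had 223 in the IDR list, 90.2 in replicate 3 and 133 in replicate 4. The forkhead factor gene fkh had 142, 19.3 and 125, so its peak rested on replicate 4, where it ranked 647 on the arms against 18188 in replicate 3. CrebA, a regulator of secretory pathway genes, had 116, 53.4 and 103, and da, which encodes the common bHLH partner, had 116, 50.5 and 62.9. The CrebA and da peaks were in the lower part of the IDR list. One of the 12 glue genes (8.33%) was at a one-gene promoter region in replicate 3's strong list.

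Polycomb and Trithorax group genes had 6 of 24 (25%, 95% exact interval 9.77 to 46.7), of which ph-p and ph-d are the near-identical pair. Su(z)2 had 140 in the IDR list, kis 120 with no region in replicate 3, and trx 120 with 25.2 in replicate 3 and 118 in replicate 4. Among peaks above the median signal of the IDR list the share was 8.33%, against 3.41% of all genes. Among 18 insulator and promoter factor genes there were 2 (11.1%): Trl, the gene of GAGA factor itself, with 236 at 13 bp downstream of its TSS, and BEAF-32 with 151 at 59 bp upstream.

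Genes used by all cells to make protein were also on the lists. Cytosolic ribosomal protein genes had 11 of 86 (12.8%, 95% exact interval 6.56 to 21.7), led by RpL24 (257), RpL27 (241), RpL37A (180) and RpS27A (123). Of the 86, 18 (20.9%) lay at divergent-pair summits, where both genes of a pair count, against 6.39% of all genes. The ribosomal share was 6.98% in replicate 3's strong list and 12.8% in replicate 4's, where all genes had 6.53% and 6.75%, so the excess over the background rested on replicate 4. Among peaks above the IDR list's median signal it was 3.49%, against 3.41% of all genes. In the IDR list 9 of the 11 summits were within 131 bp upstream of the TSS, nearer than the class median of 168 bp. Translation factors had 6 of 54 (11.1%), led by eIF6 and eEF2 (150), and Rab GTPase genes 3 of 31 (9.68%), led by Rab5, a regulator of early endosomes (426). Without replicate 3 the Rab share was 3.23%. Genes of bHLH factors had 6 of 53 (11.3%), with E(spl)m7-HLH highest at 153. Of the 6, da is also on the salivary gland list and tai on the ecdysone list. Among peaks above the median signal of the IDR list the bHLH share was 1.89%, against 3.41% of all genes. Aminoacyl-tRNA synthetase genes had 2 of 31 (6.45%).

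Mitochondrial ribosomal protein genes had a one-gene promoter summit in 1 of 73 cases (1.37%, 95% exact interval 0.0347 to 7.40), an interval that holds the 6.46% of all genes. With both genes of a pair counted, a divergent-pair summit was present at 15 of them (20.5%), against 6.39% of all genes. The 1 gene at a one-gene summit was mRpL19 (121), and the one-gene share was 5.48% in replicate 3's strong list and 2.74% in replicate 4's. Oxidative phosphorylation genes had 4 of 87 (4.60%), and 8.05% in replicate 3's strong list. Cell death and autophagy genes had 1 of 21 (4.76%), the cell death gene hid (156). Their share was 4.76% in replicate 3's strong list but 9.52% in replicate 4's, where all genes had 6.75%, and with promoters of 250 bp it was 0. Cytochrome P450 genes had 2 of 81 (2.47%), Cyp4e2 (114) and Cyp6a2 (103). The P450 share was 4.94% in replicate 3's strong list and 1.23% in replicate 4's. No gene had a one-gene promoter summit among 179 chemoreceptor genes (upper limit of the exact interval 2.04%), 70 Cpr cuticle protein genes (5.13%), 51 odorant-binding protein genes (6.98%), 48 proteasome genes (7.40%) or 16 Jonah protease genes (20.6%). The limits for the chemoreceptor and Cpr genes are under the 6.46% of all genes, and those of the others are not. However, all 70 Cpr genes and 174 of the chemoreceptor genes had fewer than 3 TSSs. Over all genes the share was 3.79% with 1 TSS and 9.0% with 2. The Cpr limit is above that 3.79%, and the chemoreceptor limit is under it. Replicate 3's own strong list gave 4.17% for the proteasome.

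Sequence at the summits was rich in A and T, more so than its surroundings. GC content was 36.5% in the 101 bp at one-gene promoter summits, 42.2% and 43.2% in windows centred 500 bp to the left and right, and 40.9% in windows centred 100 bp upstream of all 13281 one-gene TSSs. Read along the gene, it was 40.3% at 500 bp upstream of the summit, lowest, at 35.6%, at 50 bp upstream of it, and 45.3% at 500 bp downstream. Divergent-pair windows had 32.7%, and their TSSs in general 35.0%. The one-gene promoter regions in replicate 3's strong list had 33.8% and those in replicate 4's 38.9%, so both were under the 40.9% of one-gene TSSs.

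**Figure D4:**
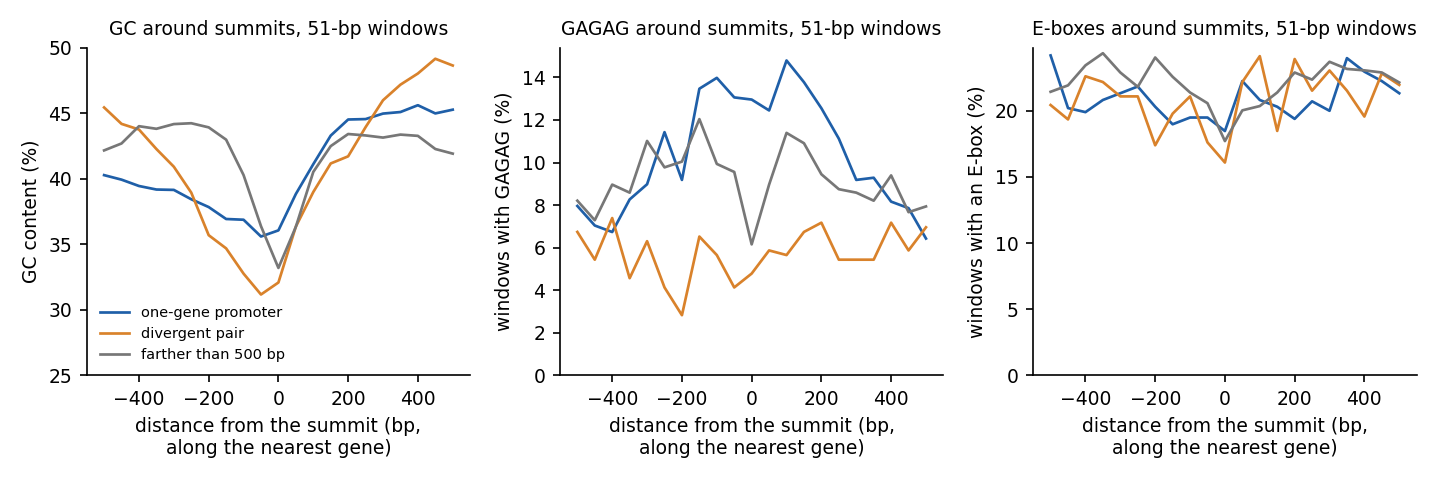
GC content (%, left), share of windows with GAGAG (%, middle) and share with an E-box (%, right) in 51-bp windows at distances of up to 500 bp from the summit along the nearest gene, for one-gene promoter (blue), divergent-pair (orange) and more distant peaks (grey). GC falls to 35.6% near one-gene summits, the GAGAG share is 12.4% to 14.8% from 150 bp upstream to 150 bp downstream of them, and the E-box share is 18.5% at the summit, its lowest, and up to 24.2%, at 500 bp upstream.

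GAGAG was more frequent at one-gene promoter peaks than at divergent-pair peaks. It was present on either strand in 221 of 980 windows (22.6%, 95% exact interval 19.97 to 25.3), as in the REPTOR, Naprt and Cad86C windows printed above, against 41 of 460 divergent-pair windows (8.91%, 6.47 to 11.9). The share was 14.0% and 14.1% in the flanks of the one-gene summits. A like difference was present without regard to any peak: 19.0% of one-gene TSSs and 9.21% of divergent-pair TSSs had GAGAG in the window 100 bp upstream. Within 4 classes of GC content, from lowest to highest, the shares were 5.05%, 16.2%, 18.7% and 41.7% at one-gene peaks and 1.25%, 7.34%, 13.1% and 20.2% at divergent-pair peaks, so the order was the same in every class. The exact intervals lay apart only in the highest class, at 36.1 to 47.4 and 12.3 to 30.4, and overlapped in the others. The divergent-pair shares rest on 2 to 17 windows with GAGAG per class.

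The level of GAGAG depended on the replicate. In replicate 3's strong list 13.1% of one-gene promoter windows had it, against 6.34% of divergent-pair windows, and in replicate 4's list the shares were 27.7% and 11.3%. One-gene promoters were above divergent pairs in both. Against the 19.0% of one-gene TSSs, however, replicate 3's share was lower and replicate 4's higher, so whether Sage-GFP peaks at one-gene promoters held more GAGAG than such promoters in general differed between the 2 libraries. The weaker regions of the pooled list at one-gene promoters had 16.2%.

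**Figure D5:**
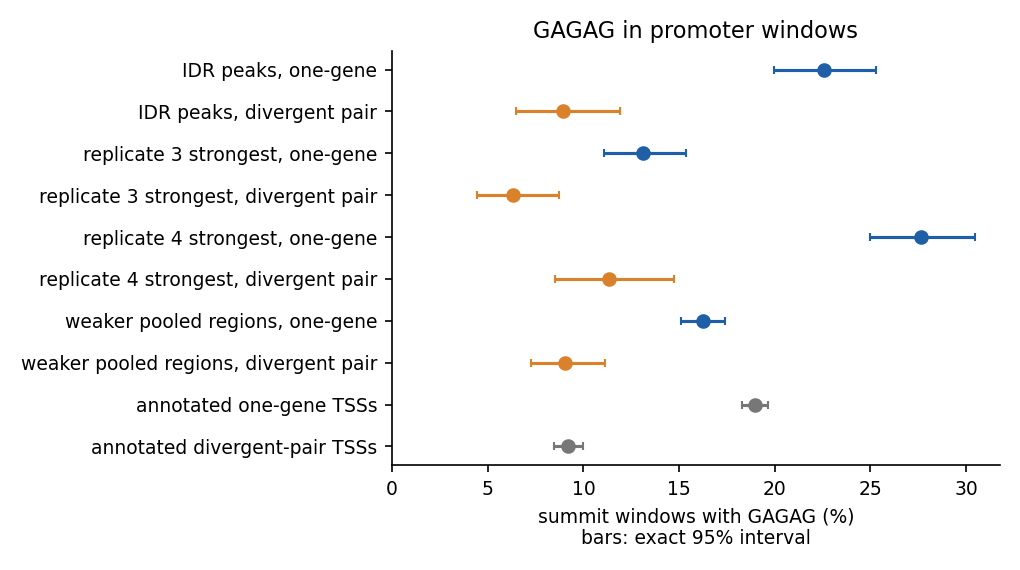
Share (%) of 101-bp windows with GAGAG on either strand, with exact 95% binomial intervals, at one-gene (blue) and divergent-pair (orange) promoters in the IDR list, in each replicate's 3312 strongest regions and in the weaker pooled regions, and 100 bp upstream of annotated TSSs (grey). One-gene promoters lie above divergent pairs in every pair of points, and replicate 3 (13.1%) and replicate 4 (27.7%) fall on either side of the annotated one-gene TSSs (19.0%).

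Copies of GAGAG went with the difference between the replicates' signals. Members with no copy had a median signal of 65.8 in replicate 3 and 83.4 in replicate 4. With 1 or 2 copies the medians were 55.6 and 87.2, and with 3 or more copies, as in 68 windows, they were 46.2 and 97.3. Members without a region in a replicate are left out of that replicate's medians. Of the 29 windows with 5 or more copies, 25 were strong in replicate 4 and 13 in replicate 3, and 6 of them had no region in replicate 3. Of all 32 members without a region in replicate 3, 18 had GAGAG (56.2%) and their GC content was 45.8%. GC content rose with GAGAG, from 34.6% in windows without it to 42.9% in windows with it, and which of the 2 the replicate difference follows was not tested. The copies had no preferred strand: 118 windows had GAGAG and 131 CTCTC along the gene's strand, and 28 had both.

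Genes with GAGAG at the summit were longer still. Their median length was 13180 bp against 5426 bp for genes of windows without it, and 67.8% against 55.1% had several TSSs. The position of the summit was alike, with 85.1% and 83.5% upstream and median distances of 160 and 168 bp. Among the 24 strongest genes the window had GAGAG in 1, REPTOR, where the copy lay at the upstream edge of the window.

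E-boxes were no more common at one-gene promoter summits than beside them. Any E-box (CANNTG) was present in 36.6% of windows (95% exact interval 33.6 to 39.7), in 38.5% and 41.7% of the flanks, in 38.0% of windows upstream of one-gene TSSs and in 34.8% of divergent-pair windows. The right flank, on the side of higher coordinates, lay above the interval of the summits. In the replicates' own strong lists the share at one-gene promoters was 36.9% and 37.1%. Members with an E-box had a median IDR signal of 141 and those without 134, with 63.2 and 62.1 in replicate 3 and 86.0 and 84.5 in replicate 4. None of the 10 E-box classes exceeded 8.27% of the windows, reached by CAAATG, the class in the CG14100 window, which stood in 9.31% of windows at one-gene TSSs. The classes differed in direction. CATATG was in 4.08% of windows (95% exact interval 2.93 to 5.52), against 2.87% at one-gene TSSs and 3.78% and 3.37% in the flanks. CAGGTG and CAAGTG were in 2.04% and 4.69% of windows, under their 3.22% and 6.26% at one-gene TSSs. The forkhead core TGTTTAC was in 3.27% of windows, against 2.24% and 2.45% in the flanks and 2.49% at one-gene TSSs.

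The DRE (TATCGATA) was rarer at one-gene than at divergent-pair peaks, in 22 of 980 windows (2.24%) against 5.43%, and was at 0.204% and 0.306% in the flanks. Without regard to any peak, the DRE was in 1.66% of windows at one-gene TSSs and 3.63% at divergent-pair TSSs. Annotated promoters thus differed in the same order. The one-gene share was 3.43% in replicate 3's strong list and 2.37% in replicate 4's. Summits with a DRE lay close to the TSS, at a median distance of 40.5 bp, and 72.7% of them within 100 bp upstream, against 24.3% of all 980 summits. The CG11151 window printed above, 231 bp upstream with signals of 413, 160 and 242 in the IDR list, replicate 3 and replicate 4, is therefore an unusual one for its position. The BEAF core CGATA, which is part of the DRE, was in 19.0% of windows, against 23.7% at divergent pairs. It was in 16.9% at one-gene TSSs and 25.3% at divergent-pair TSSs. Its share at one-gene promoters was 21.3% in replicate 3's strong list and 15.8% in replicate 4's, on either side of that of one-gene TSSs. TATAAA was in 20.3%, against 26.1% at divergent pairs. It was in 13.8% of windows at one-gene TSSs, 21.7% at divergent-pair TSSs, and 11.3% and 10.7% in the flanks. In the strong lists of replicate 3 and replicate 4 it was in 23.3% and 17.0% of one-gene promoter windows. It was also found away from promoters, in 21.6% of windows at peaks farther than 500 bp from any TSS, and in 20.4% of the weaker pooled regions at one-gene promoters.

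Counting all sequences of 7 bases, joined with their reverse complements, gave the same 3 kinds. Of the 167 present in at least 5% of one-gene promoter windows, the one highest over the flanks was ATCGATA, a part of the DRE, in 5.61% against 0.969%. In windows 100 bp upstream of all protein-coding TSSs it was in 5.26%, near its share at the peaks. Among the 10 highest, CGCTCTC (7.86% against 2.19%), CTCTCTC (7.96% against 2.35%), AGAGAGC (8.57% against 2.55%) and AAGAGAG (8.27% against 2.76%) hold GAGAG or CTCTC. They stood in 1.09% to 2.39% of divergent-pair windows and in 3.89% to 4.46% of windows upstream of all protein-coding TSSs. The other 5, such as TAATATA (8.37% against 2.19%) and TTTAAAA (15.2% against 4.85%), are made of A and T only, and were more frequent still at divergent pairs (11.7% and 20.2%). Upstream of all protein-coding TSSs, TAATATA was in 4.76% and TTTAAAA in 11.5% of windows. The 10 were picked by their ratio to the flanks, so the ratios are a description.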

How the data were processed

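ChIP-seq peak lists of 2 biological replicates, numbered 3 and 4, were analysed. Per the deposited text, the submitters made a list of peaks and background regions for each replicate and for both pooled as input to IDR, with a control alignment, and an IDR-thresholded list. The deposited signal of a region and its deposited −log10 q-value are the authors' values. Aligner, caller and scaling: not given in the sources used here, nor whether the replicates came from separate cultures. The lists on build dm3 were not used here.

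Summits were classed against protein-coding TSSs of Ensembl release 115 in Python 3.11.15 (pandas 2.3.3, numpy 2.4.6), with sequence from the RefSeq Release 6 genome. For one-gene summits a gene counted when it owned the nearest TSS. For divergent-pair summits the genes of the nearest TSS on each strand counted. A total of 30 motifs were searched on both strands of windows of 50 bp on either side of the summit. Shares carry exact Clopper-Pearson 95% intervals (scipy 1.17.1). No test was run, since regions and genes are not replicates. Named genes were the 24 with the strongest peaks, up to 4 per gene list, the 5 with most summits and the weakest, with a few others named to complete a list. In the 22 lists, h, Pita and Impl2 were matched as hry, pita and ImpL2, and Tor, which fits 2 genes, was left out. The members and lists were chosen with earlier results of these data known. The classing and the motif search were checked on simulated data.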

Additional observations from a re-analysis of the deposited data

How the results depend on the processing

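With promoters of 1000 bp the share of one-gene summits upstream was 77.2%, the median distance 217 bp, the median signal percentile 51.2 (50.4 as reported) and the share of genes 7.64%. With 250 bp the distance was 116.5 bp and the share of genes 4.84%. With divergent pairs up to 500 bp apart the percentile was 48.8 and the share of genes 7.49%, and with up to 2000 bp the latter was 5.45%. With canonical transcripts alone the percentile was 48.7, the share of genes 5.13% and the GAGAG share 17.8%. Among peaks above the median signal there were 497 one-gene summits, with a distance of 186 bp, a percentile of 52.5, 3.41% of genes, 89.3% strong in both replicates and a GAGAG share of 19.7%. The share strong in both was 55.4% when the overlap had to cover at least 50% of the region, and 52.0% when a replicate summit had to lie within 100 bp. In windows of 25 bp on either side GAGAG was in 13.0% and an E-box in 18.5%, and in windows of 100 bp in 37.8% and 60.8%. Without replicate 3 or 4 the distance was 154 to 170 bp, the percentile 50.4 to 50.6 and the GAGAG share 13.1% to 27.7%. Wider windows hold more motifs by construction, and a stricter list has fewer peaks; the causes of the other shifts were not tested. GC content, 36.5% as reported, was 38.9% without replicate 3, 33.8% without replicate 4 and 35.3% to 37.3% under the other alternatives. Every shift was under the SD between the replicates, but that SD comes from the replicates' own lists and cannot show stability. For the 16 gene lists with at least 1 gene at a one-gene summit, 87 of 128 values under alternatives were within 1.5 times the reported share, 30 were lower and 11 higher. For the 6 lists at 0, 46 of 48 values were 0. Of 30 values for the DRE, BEAF core and TATA box, 12 left the interval of the reported share. No paired analysis was possible because there is 1 group. Depth is unknown, and a region missing from a list of about 30000 may be just under its limit.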
